A study of Mus musculus with 12 samples.

Results

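The genes described here encode the subunits of respiratory complexes II to V that are carried by nuclear chromosomes. They were taken by symbol: Sdha, Sdhb, Sdhc, Sdhd and Cyc1, and every protein-coding gene whose symbol begins with Uqcr, Cox4i, Cox5, Cox6, Cox7, Cox8 or Atp5. This gave 49 gene identifiers, 48 of them with distinct symbols, out of 55416 in the deposited tables. Complex II contributed 4, complex III 9, complex IV 18 and complex V 18. A further 8 matching symbols belong to processed pseudogenes, none of which passed 4.66 TPM (transcript abundance corrected for length and library size) in any library, and were left out. Among the 49, Atp5s is caught by its prefix and is a coupling factor rather than a core subunit of the enzyme, and Cox7a2l is a supercomplex factor related to the Cox7a proteins. A second, long Atp5o identifier and the testis-type Cox8c had no counts in any of the 12 libraries.

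Gastrocnemius, a muscle of the calf, and hypothalamus were taken for RNA sequencing from 6 male BALB/c mice, labelled as 7 weeks of age, which the protocol gives as the age at tumour injection. There were 3 CT-26 mice and 3 control mice, so each tissue gave 3 CT-26 and 3 control libraries and the tissues together 4 groups. CT-26 is a mouse colon carcinoma line that was injected under the abdominal skin. Tissue of the tumour-bearing mice, which the labels describe as having lost body weight, was taken on day 25, and the controls are labelled as healthy mice without tumours. The labels give no collection day for the control mice, so a difference in age or time of collection between the groups cannot be told apart from the tumour. No genotype, drug or diet separates the groups in the labels, so the tumour is the labelled difference in each tissue. All CT-26 mice carry the same tumour line, and food intake is not among the labels. The comparison therefore addresses how transcripts of these subunits differ between cachectic and normal mice in muscle and in the brain region that regulates feeding.

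Complex II, succinate dehydrogenase, passes electrons from succinate to ubiquinone. Complex III passes them on to cytochrome c, and complex IV, cytochrome c oxidase, hands them to oxygen, while protons pumped by complexes III and IV drive ATP production by complex V, the ATP synthase. Complex II is made only from nuclear genes, whereas complexes III to V also hold proteins encoded in mitochondrial DNA. Several complex IV subunits exist as a form expressed in heart and skeletal muscle and a form found in most tissues: Cox6a2 and Cox6a1, Cox7a1 and Cox7a2, Cox8b and Cox8a.

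Libraries held between 26015741 and 42771331 expected counts in gastrocnemius and between 27195316 and 52535761 in hypothalamus. The tissue labels fitted their marker genes. Summed TPM of 8 myofibre genes was 62298 to 93227 in CT-26 muscles and 72841 to 107890 in control muscles, and the 6 neuron genes summed to at most 0.58 TPM in any muscle. In hypothalamus the neuron genes summed to 1187 to 1267 TPM in CT-26 mice and 1184.5 to 1346 TPM in control mice. Mitochondrially encoded genes took 8.26 to 11.1% of the counts in CT-26 muscles and 13.5 to 19.7% in control muscles. Markers of other cells moved with the tumour in muscle. Neutrophil genes, 4 of 4 tested higher, summed to 66.2 to 495 TPM in CT-26 muscles and 0.64 to 1.13 TPM in control muscles, and erythroid genes, 4 of 4 higher, to 2428 to 3037 TPM in CT-26 muscles and 528 to 887 TPM in control muscles. Adipocyte genes, 4 of 4 tested lower, summed to 18.3 to 24.1 TPM in CT-26 muscles and 73.1 to 93.9 TPM in control muscles, and fibroblast genes, 4 of 5 lower, to 23.3 to 37.2 TPM in CT-26 muscles and 84.3 to 146 TPM in control muscles. Slow-fibre genes passed the test in 0 of 4 cases by edgeR, 3 of them with an adjusted p between 0.051 and 0.080 and all 4 above 0, while 3 of 4 were higher with library totals and in TPM; they summed to 465 to 3575 TPM in CT-26 muscles and 380 to 832 TPM in control muscles. Endothelial genes summed to 29.3 to 45.1 TPM in CT-26 muscles and 29.35 to 31.1 TPM in control muscles; 2 of 3 were lower (Kdr at -1.69 ± 0.17 and Cdh5 at -0.56 ± 0.13), against 1 lower and 1 higher with library totals and in TPM. Of the 8 myofibre genes 2 were lower (Mylpf at -1.13 ± 0.23 and Acta1 at -0.96 ± 0.24); with library totals 2 were lower and 1 higher, and in TPM 0 were lower and 1 higher. The part of these shifts in the values below was not tested. In tissue RNA of this kind, fewer cells of a type and less RNA per cell cannot be told apart.

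In gastrocnemius, 11 of the 45 members that entered the test were lower in CT-26 mice and 0 were higher (edgeR quasi-likelihood test, adjusted p below 0.05). Of all 14265 genes tested, 38.0% were called in either direction, 18.3% of them lower and 19.6% higher. The 24.4% of members called lower is near that background. No member was higher at an unadjusted p below 0.05 or by DESeq2 either, and 15 were lower at that unadjusted level. Most members lay on the same side: 41 of 45 had a log2 fold change below 0 (35 with library totals and 27 in TPM), with a median of -0.43 against a median of -0.0015 for all genes. These values use TMM scaling, which sets each library against the bulk of its genes. The 4 members that did not enter were Cox6b2, Cox7b2, Cox8c and the long Atp5o locus, all at or near 0 counts.

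**Figure D1:**
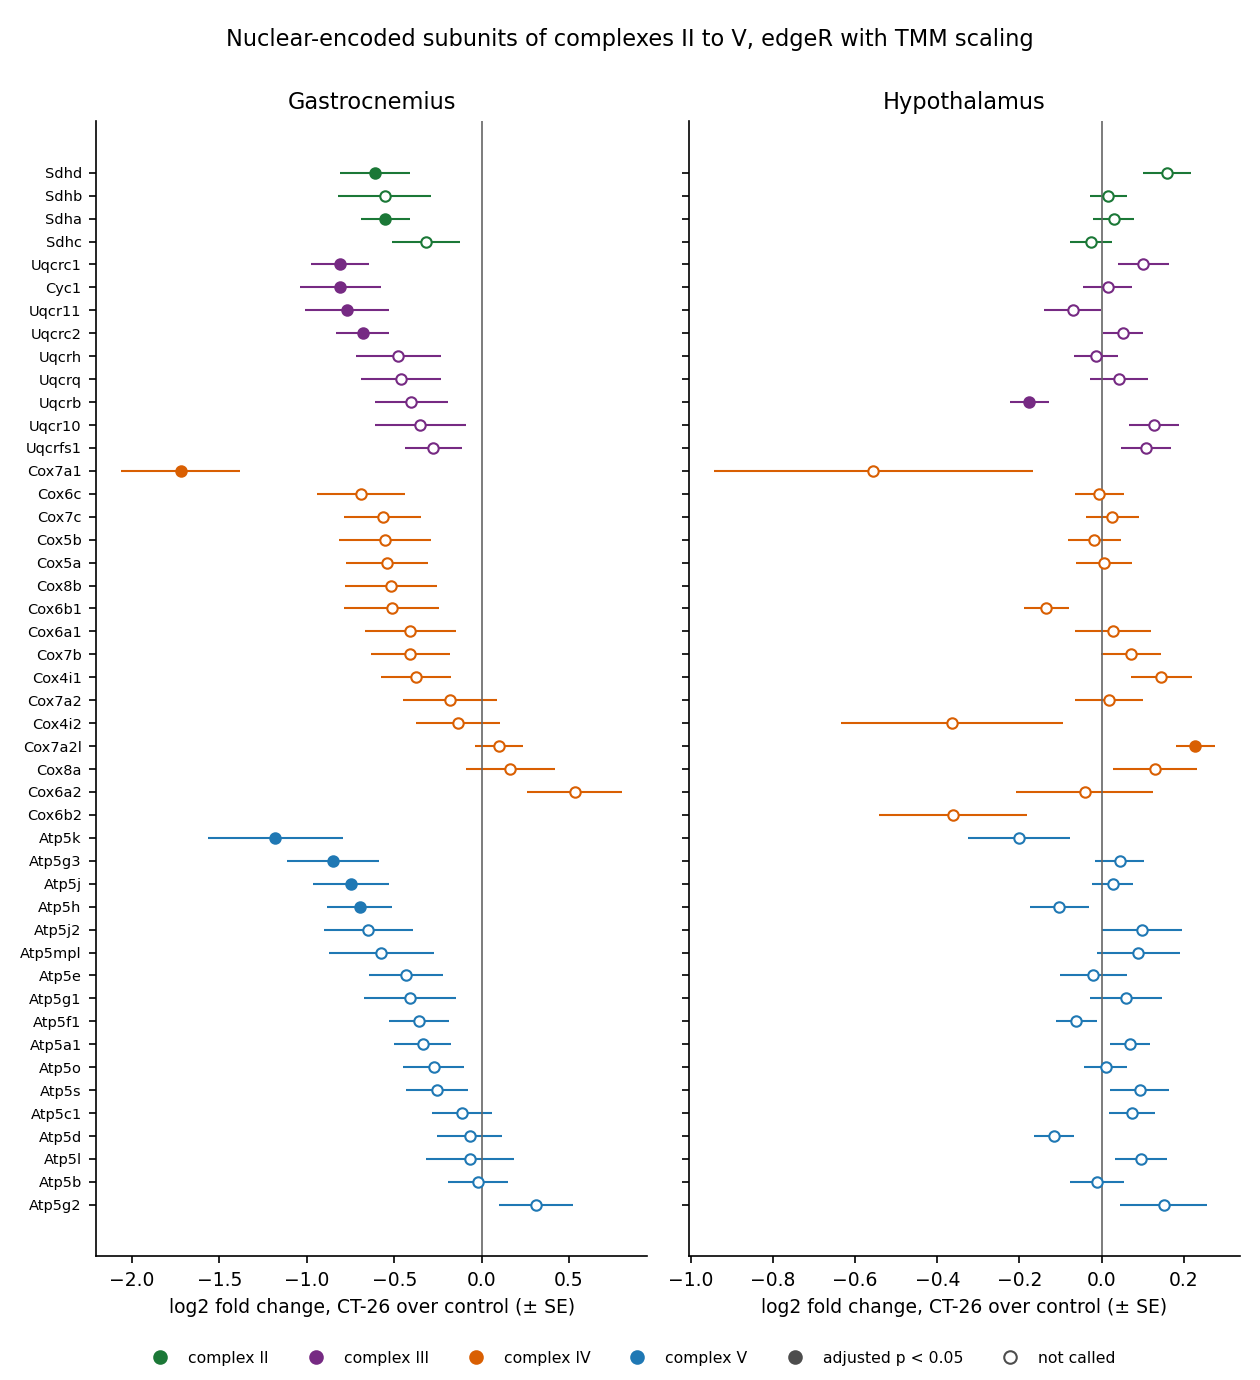
Log2 fold change of CT-26 over control with its standard error for each tested member, ordered by complex, in gastrocnemius and in hypothalamus, on separate horizontal scales (edgeR, TMM scaling, 3 libraries a group); filled points passed an adjusted p of 0.05. In gastrocnemius 41 of 45 points lie below 0, 27 of 45 in TPM, and Cox7a1 lies lowest at -1.72.

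All 4 subunits of complex II had values below 0, with a median log2 fold change of -0.55, and Sdha and Sdhd fell. Sdha, the flavoprotein that oxidises succinate, had 317, 317 and 331 CPM (counts scaled to library size with TMM factors) in CT-26 muscles, against 436, 443 and 535 CPM in control muscles. Every CT-26 muscle lay below every control muscle, and the fitted log2 fold change was -0.55 ± 0.14 (SE, edgeR adjusted p = 0.0161). Sdhd, a membrane anchor that holds the enzyme in the inner membrane, had 91.1, 87.2 and 129.7 CPM in CT-26 muscles, against 150.2, 130.2 and 190.2 CPM in control muscles. Its groups were separated by less than 1 CPM, between CT-26 mouse 3 and control mouse 2, and the log2 fold change was -0.61 ± 0.20 (edgeR adjusted p = 0.0421). The iron-sulphur subunit Sdhb had 148, 123 and 214 CPM in CT-26 muscles, against 208, 182 and 322 CPM in control muscles. CT-26 mouse 3 lay inside the control range, and the log2 fold change of -0.55 ± 0.27 did not pass (edgeR adjusted p = 0.132). The other anchor, Sdhc, had 150.3, 132 and 208 CPM in CT-26 muscles, against 198, 178 and 236 CPM in control muscles, and stood at -0.32 ± 0.19 (edgeR adjusted p = 0.226; above 0 in TPM).

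Complex III had 4 of 9 members lower and a median log2 fold change of -0.48. Both core proteins, Uqcrc1 and Uqcrc2, which scaffold the matrix side of the complex, fell. Uqcrc1 had 299.6, 312 and 385 CPM in CT-26 muscles, against 531, 545.5 and 670.1 CPM in control muscles. Uqcrc2 had 203, 188 and 229 CPM in CT-26 muscles, against 298, 316 and 379.8 CPM in control muscles. Neither gene had any overlap between groups, and their log2 fold changes were -0.81 ± 0.17 and -0.68 ± 0.15 (edgeR adjusted p = 0.00648 and 0.00882). Cyc1, the haem-bearing cytochrome c1 that passes electrons to cytochrome c, had 127, 117 and 191 CPM in CT-26 muscles, against 241, 205 and 316 CPM in control muscles. Its log2 fold change was -0.81 ± 0.23 (edgeR adjusted p = 0.0251). Uqcr11, a small accessory subunit, had 80.7, 100.8 and 150.7 CPM in CT-26 muscles, against 164, 171 and 231 CPM in control muscles. It also fell, by 0.77 ± 0.24 on the log2 scale (edgeR adjusted p = 0.0359). CT-26 mouse 3 was the highest of the CT-26 muscles, and control mouse 3 the highest of the control muscles, in all 4 of these genes. The Rieske iron-sulphur protein Uqcrfs1, the other redox subunit, had 210.5, 195 and 268 CPM in CT-26 muscles, against 263, 244 and 308 CPM in control muscles. Its groups overlapped and its log2 fold change was -0.28 ± 0.16 (edgeR adjusted p = 0.218; above 0 in TPM). The small subunits Uqcrb, Uqcrh, Uqcrq and Uqcr10 lay between -0.48 and -0.35 without passing, and Uqcrq and Uqcr10 lay above 0 in TPM.

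Complex IV had 1 of 15 tested members lower, with a median of -0.41. That gene was Cox7a1, the muscle form of subunit VIIa, which had 38.4, 46.7 and 90.3 CPM in CT-26 muscles, against 162, 157 and 259.5 CPM in control muscles. The highest CT-26 muscle was well below the lowest control muscle. The log2 fold change was -1.72 ± 0.34, which is 3.30-fold lower and the largest change of any member in this tissue (edgeR adjusted p = 0.00548). The 4 single-form subunits Cox5a, Cox5b, Cox6c and Cox7c were called in 0 cases by edgeR, although 3 had an unadjusted p below 0.05 and DESeq2 called Cox6c and Cox7c. Cox6c, a membrane-spanning subunit, had 172, 221 and 308 CPM in CT-26 muscles, against 304, 342 and 483 CPM in control muscles. Only CT-26 mouse 3 reached the control range, and the log2 fold change was -0.69 ± 0.25 (edgeR adjusted p = 0.0586). Cox7c, another small membrane subunit, had 131, 171 and 232 CPM in CT-26 muscles, against 229, 252 and 309.6 CPM in control muscles, and stood at -0.57 ± 0.22 (edgeR adjusted p = 0.0735). Of the family genes, Cox4i1, the main form of a subunit known for regulating the enzyme, was at -0.37 ± 0.20, and its rarer relative Cox4i2 was at -0.13 ± 0.24 (above 0 with library totals and in TPM). Cox6b1, which faces the intermembrane space, was at -0.52 ± 0.27, and Cox7b, which spans the membrane, at -0.41 ± 0.23. Cox7a2l, the supercomplex factor, had 102.3, 109.9 and 98.03 CPM in CT-26 muscles, against 87.1, 89.8 and 113 CPM in control muscles. Control mouse 3 held the most, and the log2 fold change was 0.098 ± 0.14 (edgeR adjusted p = 0.601). Cox6a2 and Cox8a also lay above 0.

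Complex V had 4 of 17 tested members lower and a median of -0.36. These 4 are 23.5% of those tested, near the 18.3% of all genes lower, and none was called with library totals or in TPM. They were 2 of 4 peripheral stalk genes, 1 of 3 subunit c genes and 1 of 4 small membrane genes. Not called were the stalk genes Atp5f1 and Atp5o, at -0.36 ± 0.17 and -0.27 ± 0.18. Nor were the membrane genes Atp5j2, Atp5mpl and Atp5l, at -0.65 ± 0.25, -0.57 ± 0.30 and -0.067 ± 0.25. Atp5h, subunit d of the peripheral stalk that holds the catalytic head still, had 174, 184 and 250.1 CPM in CT-26 muscles, against 293, 306 and 387 CPM in control muscles. Atp5j, coupling factor 6 of the same stalk, had 148, 164 and 250.5 CPM in CT-26 muscles, against 286, 292 and 366 CPM in control muscles. Both were lower in every CT-26 muscle, with log2 fold changes of -0.70 ± 0.19 and -0.75 ± 0.22 (edgeR adjusted p = 0.0194 and 0.0267). Atp5g3, which encodes subunit c of the rotating ring, had 105, 115 and 174 CPM in CT-26 muscles, against 210.1, 178 and 321 CPM in control muscles. Its log2 fold change was -0.85 ± 0.26 (edgeR adjusted p = 0.0346). Atp5k, subunit e, which helps the synthase form dimers, had 29.5, 39.7 and 66.6 CPM in CT-26 muscles, against 73.0, 72.0 and 163 CPM in control muscles. It fell by 1.18 ± 0.39 (edgeR adjusted p = 0.0415), and control mouse 3 held more than the other 2 control muscles together.

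In the catalytic head no gene passed. Of the 5 genes for the F1 head and central stalk, 0 were called by edgeR, where 18.3% of all genes were lower. Among them 0 had an unadjusted p below 0.05, and the median log2 fold change was -0.11. Atp5b, the catalytic beta subunit and the most abundant member per length in muscle, had 2319, 2122 and 2355 CPM in CT-26 muscles, against 2076, 2212 and 2609 CPM in control muscles. The groups overlapped throughout, with a log2 fold change of -0.021 ± 0.17 (edgeR adjusted p = 0.932) that lay above 0 with library totals and in TPM. Atp5a1, the alpha subunit, was at -0.34 ± 0.16 (edgeR adjusted p = 0.131) although its groups did not overlap, and the gamma, delta and epsilon subunits Atp5c1, Atp5d and Atp5e were at -0.11 ± 0.17, -0.069 ± 0.19 and -0.43 ± 0.21. Atp5c1 and Atp5d lay above 0 with library totals and in TPM and Atp5a1 in TPM, so that of these 5 genes only Atp5e stayed below 0 in all 3 scalings. Of the 17 tested members of complex V, 1 was above 0 with TMM scaling, 5 with library totals and 9 in TPM. The difference between the F1 genes and the stalk genes was not itself tested.

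**Figure D2:**
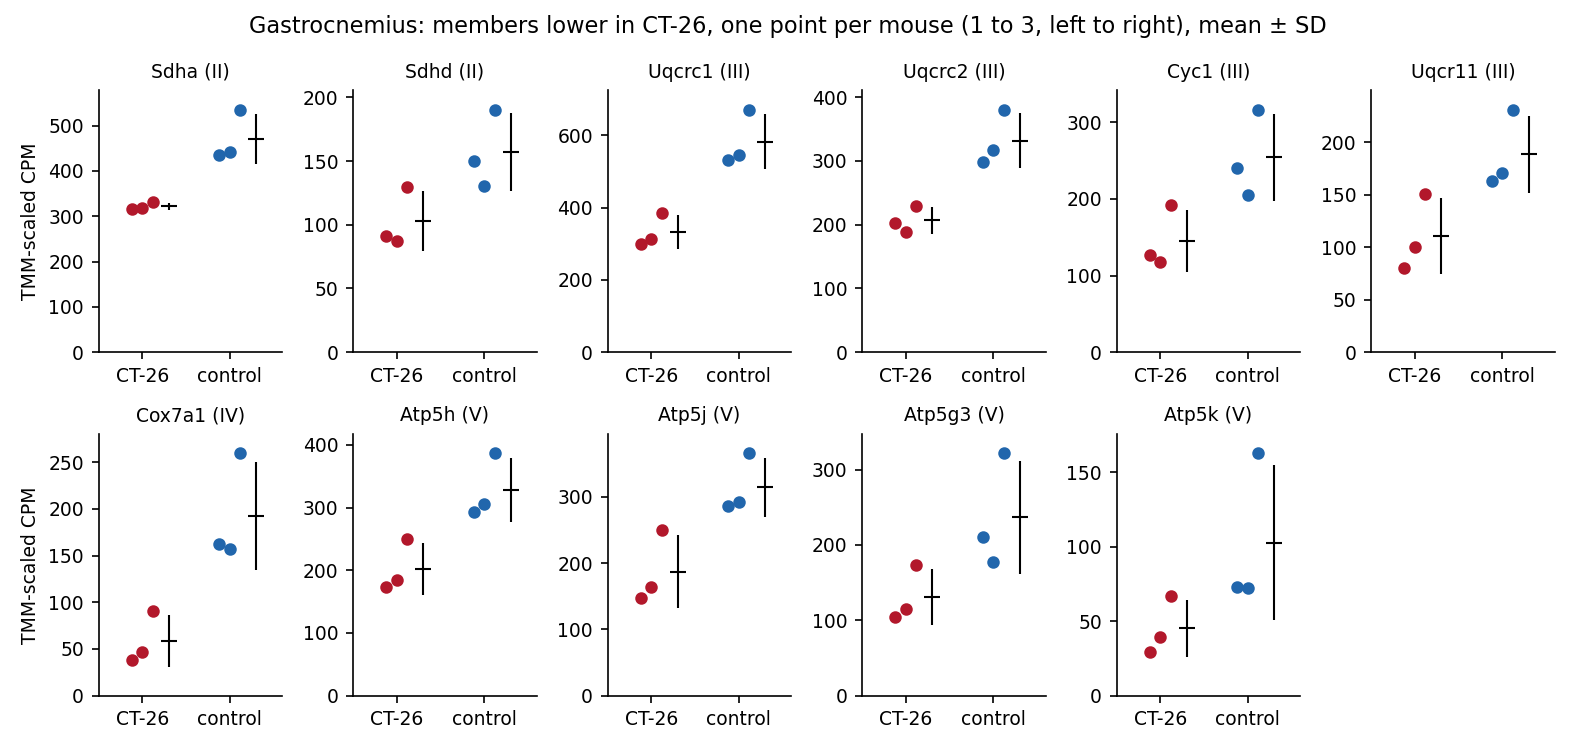
TMM-scaled CPM of the 11 members called lower in gastrocnemius, 1 point per mouse with the mean and SD of each group of 3. In every panel each CT-26 muscle lies below each control muscle; with library totals 3 of these genes still passed, and in TPM Cox7a1 alone.

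Across the 45 tested members, the CPM of 13 did not overlap between groups, all with CT-26 lower, and 0 did so with CT-26 higher; among all genes the shares were 25.3% and 26.3%. The 13 were the 11 genes that fell, with Atp5a1 and Atp5j2. CT-26 mouse 3 was the highest of the CT-26 muscles in all 13. Without that mouse 27 members were called lower, against 4 without CT-26 mouse 1 and 5 without CT-26 mouse 2. Leaving out control mouse 1, 2 or 3 gave 6, 9 and 3 lower members. Cox7a1, Uqcrc1 and Uqcrc2 were called in all 6 of these fits, with adjusted p-values of at most 0.0186, 0.0243 and 0.0324. Sdha was called in 5 and reached an edgeR adjusted p of 0.0560 without control mouse 3, and the remaining 7 genes were called in 1 to 4 of the 6.

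How many members passed varied with the scaling. When libraries were scaled by their totals alone, the median log2 fold change of all genes was 0.20 and 11.7% of genes were lower, and 3 members were lower: Cox7a1, Uqcrc1 and Uqcrc2. The members' median was then -0.22, which is -0.42 from that of all genes, against -0.43 with TMM scaling. A change of library factors shifts all genes by nearly the same amount, so this distance could hardly change. In the deposited TPM, tested with limma on log2(TPM + 0.5), the median of all genes was 0.28, and 7.14% of genes were lower and 31.4% higher. Cox7a1 was then the only lower member, at -1.33 (limma adjusted p = 0.00393). Cox6a2 at 0.88, Atp5g2 at 0.68 and Cox7a2l at 0.49 were higher in TPM (limma adjusted p = 0.020, 0.0154 and 0.0334), and the members' median was -0.05, which is -0.33 from that of all genes. All 11 genes called with TMM scaling were below 0 in both other scalings, but 14 of the 45 members changed sign in TPM and 6 with library totals. Added over all members, TPM was 22433 to 35086 in CT-26 muscles and 25682 to 28023 in control muscles, with overlap. In TPM, Uqcrc1 had 285, 243 and 296 in CT-26 muscles, against 366, 359 and 386 in control muscles, without overlap but short of the threshold (limma adjusted p = 0.0540).

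**Figure D3:**
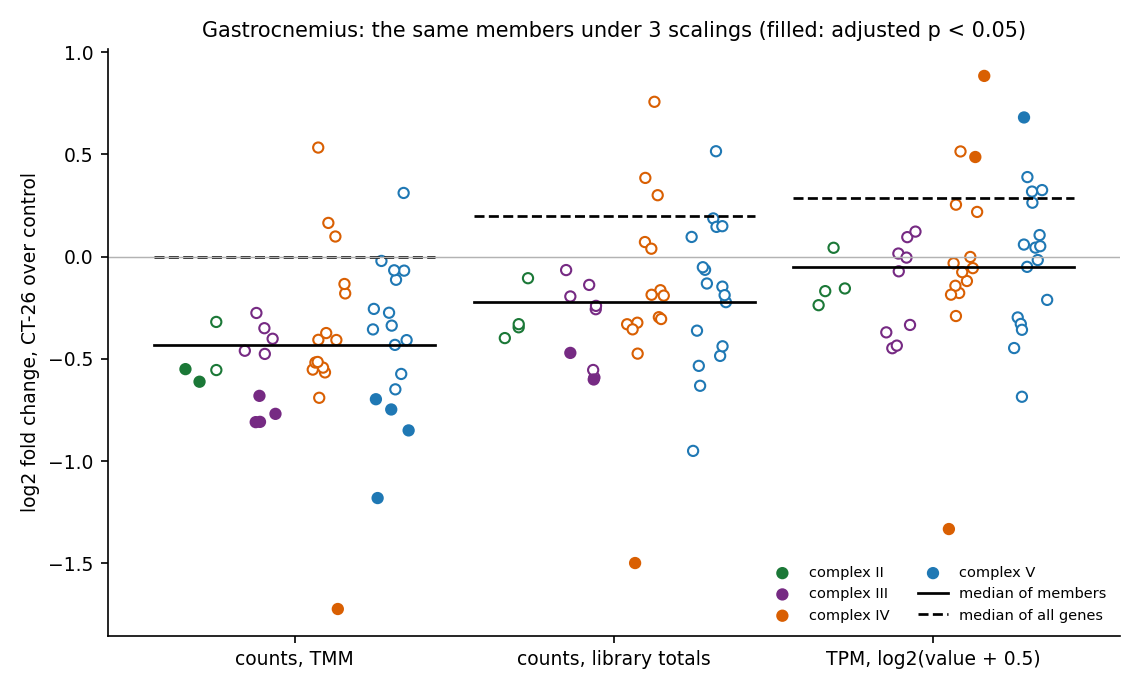
Log2 fold change of CT-26 over control in gastrocnemius for each tested member under TMM scaling, library totals and TPM; solid lines mark the members' median and dashed lines the median of all genes. The members' median is -0.43 with TMM, -0.22 with library totals and -0.05 in TPM, and the median of all genes is -0.0015, 0.20 and 0.28.

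Ratios of muscle-type to ubiquitous forms do not depend on the scaling, because both genes are read in the same library. In control gastrocnemius the muscle form carried most transcripts of each family. The log2 ratio of Cox7a1 to Cox7a2 in TPM was 0.53, 0.75 and 1.06 in CT-26 muscles, against 2.23, 2.45 and 2.43 in control muscles. Cox7a1 thus made up 59.1, 62.7 and 67.6% of the family in CT-26 muscles, against 82.4, 84.5 and 84.3% in control muscles. The groups did not overlap, and the ratio was 3.00-fold lower. For the Cox6a family the ratio went the other way: the log2 ratio of Cox6a2 to Cox6a1 was 5.87, 5.90 and 5.90 in CT-26 muscles, against 4.79, 5.24 and 4.88 in control muscles, which is 1.89-fold higher. The log2 ratio of Cox8b to Cox8a was 3.27, 3.87 and 3.46 in CT-26 muscles, against 4.06, 4.17 and 4.14 in control muscles, 1.51-fold lower. The 3 muscle forms therefore did not move together against their partners. In each pair the CT-26 and control ratios were fully separated, and the two-sided exact permutation p was 0.1, the smallest that 3 against 3 libraries can give, also after adjustment over the 3 pairs.

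The genes behind these ratios differed. Cox7a1 itself fell, whereas Cox7a2, the ubiquitous form, was at -0.18 ± 0.27 and above 0 with library totals and in TPM. Cox6a2 had 972, 906 and 1717 CPM in CT-26 muscles, against 672, 830.2 and 982 CPM in control muscles. CT-26 mouse 3 stood far above the other muscles, and the log2 fold change of 0.53 ± 0.27 did not pass (edgeR adjusted p = 0.154). In TPM, Cox6a2 had 2954, 2201 and 4290 in CT-26 muscles, against 1488, 1743 and 1713 in control muscles, with no overlap. Its share of all complex IV TPM averaged 30.6 ± 2.7% in CT-26 muscles and 17.1 ± 1.5% in control muscles (SD, n = 3 each), while the share of Cox7a1 averaged 4.10 ± 0.69% in CT-26 muscles and 10.6 ± 0.52% in control muscles. The ubiquitous Cox6a1 had 12.5, 11.6 and 21.6 CPM in CT-26 muscles, against 18.3, 16.5 and 25.8 CPM in control muscles. Its log2 fold change was -0.41 ± 0.26, that of Cox8b -0.52 ± 0.26 and that of Cox8a 0.16 ± 0.25, none of them called. Cox8b had 109, 159.8 and 213 CPM in CT-26 muscles, against 193, 199 and 298 CPM in control muscles, with CT-26 mouse 3 inside the control range. Summed over both forms, Cox7a transcripts came to 559, 483 and 977 TPM in CT-26 muscles, against 1229, 1099.7 and 1331 TPM in control muscles. Cox6a came to 3004, 2238 and 4362 TPM in CT-26 muscles, against 1542, 1789 and 1771 TPM in control muscles. Cox8 sums overlapped between the groups. Cox4i2, which is best known from lung, made up 0.41 to 0.54% of the Cox4i family in CT-26 muscles and 0.34 to 0.47% in control muscles. Testis-type Cox6b2 stayed at or below 0.11% of its family in every muscle.

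**Figure D4:**
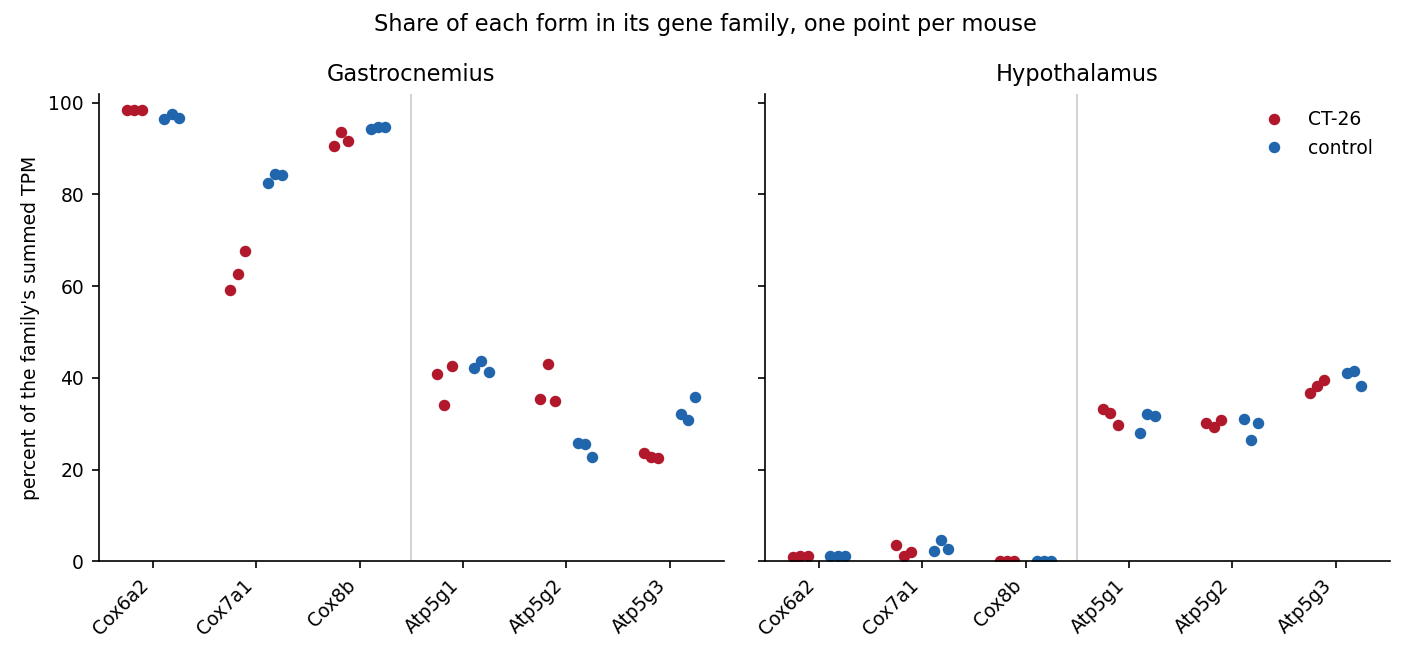
Share of each isoform family's summed TPM held by Cox6a2, Cox7a1, Cox8b and the subunit c genes Atp5g1, Atp5g2 and Atp5g3, 1 point per mouse, CT-26 beside control, in both tissues. Cox7a1 held 59.1 to 67.6% in CT-26 muscles and 82.4 to 84.5% in control muscles, while the hypothalamus groups overlap in every panel.

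Subunit c of the ATP synthase is encoded by Atp5g1, Atp5g2 and Atp5g3, whose products differ in the import sequence that is removed and yield the same mature protein. Atp5g2 held 35.4, 43.0 and 35.0% of their summed TPM in CT-26 muscles, against 25.8, 25.5 and 22.7% in control muscles. Atp5g3 held 23.7, 22.8 and 22.5% in CT-26 muscles, against 32.1, 30.8 and 35.9% in control muscles. Neither share overlapped between the groups, and they moved in opposite directions. Atp5g1 held 40.9, 34.2 and 42.5% in CT-26 muscles, against 42.1, 43.7 and 41.4% in control muscles, with overlap. The 3 genes together came to 1239, 1129 and 1772 TPM in CT-26 muscles, against 1333, 1115 and 1445 TPM in control muscles, also with overlap. As single genes, Atp5g3 fell and Atp5g2 was at 0.31 ± 0.21 with TMM scaling (edgeR adjusted p = 0.280), higher only in TPM. By the two-sided exact permutation test, p was 0.1 for the Atp5g2 and Atp5g3 shares and 0.3 for that of Atp5g1, without adjustment. The value 0.1 is the smallest that 3 against 3 libraries can give.

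Sequences before the transcription starts are shown for Cox7a1 and Cox7a2 and for Cox8b and Cox8a, as examples of pairs whose ratios separated, and for Atp5g2 and Atp5g3, whose shares moved in opposite directions. Each line gives the 250 bases upstream of the RefSeq start (GRCm38.p6), read 5′ to 3′ on the gene's strand. Cox7a1 lies at chr7:30183921-30184170 on the plus strand, Cox7a2 at chr9:79759854-79760103, Cox8b at chr7:140900447-140900696, Cox8a at chr19:7217617-7217866, Atp5g2 at chr15:102671048-102671297 and Atp5g3 at chr2:73911327-73911576, these 5 on the minus strand. Capitals mark the matches to GCGCATGC, a motif of the NRF1 factor, to CGGAAG, an ETS motif of the kind that GABP binds, and to CAGCTG, an E-box, on either strand.
Cox7a1: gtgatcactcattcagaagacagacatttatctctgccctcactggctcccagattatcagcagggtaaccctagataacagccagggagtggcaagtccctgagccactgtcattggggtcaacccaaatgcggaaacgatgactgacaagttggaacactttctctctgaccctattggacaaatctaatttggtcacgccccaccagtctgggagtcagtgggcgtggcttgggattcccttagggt
Cox7a2: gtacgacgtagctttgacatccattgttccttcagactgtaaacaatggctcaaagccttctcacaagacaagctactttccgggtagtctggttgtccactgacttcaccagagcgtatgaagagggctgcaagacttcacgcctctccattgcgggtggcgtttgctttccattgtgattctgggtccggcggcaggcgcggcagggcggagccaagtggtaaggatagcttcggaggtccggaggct
Cox8b: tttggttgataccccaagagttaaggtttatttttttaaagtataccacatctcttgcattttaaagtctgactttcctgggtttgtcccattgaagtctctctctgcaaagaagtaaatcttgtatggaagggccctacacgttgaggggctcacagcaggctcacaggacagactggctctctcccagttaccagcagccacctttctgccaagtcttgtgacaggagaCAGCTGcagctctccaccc
Cox8a: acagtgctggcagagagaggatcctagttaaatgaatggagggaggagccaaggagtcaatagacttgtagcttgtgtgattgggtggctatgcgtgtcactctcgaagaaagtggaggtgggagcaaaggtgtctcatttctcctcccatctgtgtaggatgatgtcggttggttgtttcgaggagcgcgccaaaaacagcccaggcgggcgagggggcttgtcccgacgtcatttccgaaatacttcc
Atp5g2: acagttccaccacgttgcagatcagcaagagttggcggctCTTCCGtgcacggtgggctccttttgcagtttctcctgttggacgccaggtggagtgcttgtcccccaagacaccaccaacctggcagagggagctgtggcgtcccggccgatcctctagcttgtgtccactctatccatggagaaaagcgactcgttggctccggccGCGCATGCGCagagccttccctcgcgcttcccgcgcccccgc
Atp5g3: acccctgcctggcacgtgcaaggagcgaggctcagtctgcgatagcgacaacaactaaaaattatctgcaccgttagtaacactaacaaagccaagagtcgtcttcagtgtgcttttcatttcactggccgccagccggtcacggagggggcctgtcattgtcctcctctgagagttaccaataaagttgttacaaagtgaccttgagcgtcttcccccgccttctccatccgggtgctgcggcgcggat
Atp5g2 held the NRF1 letters on both strands at overlapping places and the ETS letters once, Cox8b held the E-box letters once, and the other 4 windows held none of them. The Atp5g2 window is upstream of its RefSeq start but lies wholly inside the gene as annotated in GENCODE M21 (chr15:102662864-102672352). Windows were found for 34 of the members, Cox6a2 not among them. These members had 37 windows, of which 35 matched a transcript of their own gene on its strand; those of Sdhd and Cox5a did not. GCGCATGC, searched on both strands, was in 5 of them (14.7%), namely Sdhb, Cox6a1, Atp5g2, Atp5k and Atp5l, against 2.56% of 27025 genes. CGGAAG was in 13 (38.2%) against 15.3% of all genes. The muscle motifs CTAAAAATA (MEF2) and CAGCTG (the E-box) were in 0 and 2 members, Cox8b and Atp5b, against 0.537% and 14.7% of all genes. CTAAAAATA and CAGCTG share no stretch with the other motifs. Members' windows had a median of 13.5 CG pairs, against 6 for all genes. Among the genes that fell, Sdhd, Uqcr11, Atp5h and Atp5j held the ETS letters and Atp5k the NRF1 letters. The Sdhd window is one of those that did not match its own transcript, and Atp5j has 2 windows, 1 of them with the letters; these matches are a description of letters only.

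The hypothalamus showed few differences. Of 45 tested members 1 was higher and 1 lower in CT-26 mice, where 8.77% of all 17961 genes were called, 3.94% higher and 4.83% lower. The median log2 fold change was 0.026. Cox7a2l, the supercomplex factor, had 158, 148 and 149 CPM in CT-26 hypothalami, against 127, 133 and 128 CPM in control hypothalami. Every CT-26 value exceeded every control value and the log2 fold change was 0.23 ± 0.048 (edgeR adjusted p = 0.0168); the call was lost in TPM and, at an edgeR adjusted p of 0.0542, without control mouse 3. Uqcrb, a small complex III subunit near the ubiquinone site, had 107, 101 and 106 CPM in CT-26 hypothalami, against 119, 121 and 115 CPM in control hypothalami. Its log2 fold change was -0.18 ± 0.048 (edgeR adjusted p = 0.0446), and it was called in none of the 6 fits that left out a library, where the edgeR adjusted p ran from 0.0639 to 0.199.

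Most other subunits were close to level in the hypothalamus. At low counts, Cox7a1 was at -0.56 ± 0.39 and Cox4i2 at -0.36 ± 0.27 (edgeR adjusted p = 0.409 and 0.440). In complex II, Sdhd had 56.0, 56.9 and 53.7 CPM in CT-26 hypothalami, against 49.6, 46.8 and 52.7 CPM in control hypothalami. These values did not overlap, but the log2 fold change of 0.16 ± 0.058 did not pass (edgeR adjusted p = 0.115). Sdha had 320.5, 343 and 334 CPM in CT-26 hypothalami, against 319, 339 and 319 CPM in control hypothalami, a log2 fold change of 0.029 ± 0.050, and Sdhb was at 0.017 ± 0.046. The core proteins of complex III, Uqcrc1 and Uqcrc2, which fell in muscle, were at 0.10 ± 0.063 and 0.053 ± 0.049. Uqcr10, a small complex III subunit, had 62.1, 59.4 and 54.7 CPM in CT-26 hypothalami, against 51.2, 53.7 and 56.1 CPM in control hypothalami, and was at 0.13 ± 0.061 with overlap. Uqcrfs1 had 73.5, 74.7 and 68.0 CPM in CT-26 hypothalami, against 62.3, 66.9 and 71.1 CPM in control hypothalami, and was at 0.11 ± 0.061. In complex IV, Cox6b1 had 165, 171 and 159 CPM in CT-26 hypothalami, against 183, 171 and 190.2 CPM in control hypothalami, a log2 fold change of -0.13 ± 0.054 (edgeR adjusted p = 0.154). Cox6b2, its testis-type relative, had 1.54, 1.73 and 1.41 CPM in CT-26 hypothalami, against 2.10, 1.77 and 2.11 CPM in control hypothalami. All 3 CT-26 values were the lower ones, and the log2 fold change was -0.36 ± 0.18 (edgeR adjusted p = 0.241). In complex V, Atp5d, the delta subunit, had 148, 138 and 138 CPM in CT-26 hypothalami, against 148, 158 and 154 CPM in control hypothalami, and was at -0.12 ± 0.049 (edgeR adjusted p = 0.171). Atp5k had 26.0, 26.5 and 26.4 CPM in CT-26 hypothalami, against 36.1, 23.6 and 31.1 CPM in control hypothalami, where the control mice spread widely around the CT-26 mice. Atp5l, subunit g, was at 0.096 ± 0.063 and Atp5b at -0.012 ± 0.065 (above 0 with library totals and in TPM). CPM of 4 members did not overlap with CT-26 higher, and of 3 with CT-26 lower, where 14.7% and 15.6% of all genes did so. The muscle forms were scarce: Cox6a2 held 0.98 to 1.28% of its family in CT-26 hypothalami and 1.10 to 1.25% in control hypothalami, Cox7a1 held 1.13 to 3.62% in CT-26 hypothalami and 2.21 to 4.56% in control hypothalami, and Cox8b at most 0.15% in any hypothalamus. Erythroid genes were higher in 4 of 4 cases and neutrophil genes in 3 of 4 tested, the neutrophil genes summing to 23.6 to 259 TPM in CT-26 hypothalami and 2.54 to 3.77 TPM in control hypothalami. Oligodendrocyte genes, 3 of 3 lower, summed to 1077 to 1327 TPM in CT-26 hypothalami and 1873 to 2123 TPM in control hypothalami; their part in these values was not tested.

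The difference between the tissues was tested directly, as the CT-26 effect in gastrocnemius minus that in hypothalamus over all 12 libraries. Of 46 members 8 were lower and 0 higher in this term by edgeR, with 0 higher at an unadjusted p below 0.05 and by DESeq2. Among all 18746 genes 26.4% were called, 14.0% lower and 12.4% higher. The 8 were Uqcrc1 (-0.93 ± 0.18), Uqcrc2 (-0.75 ± 0.15), Sdha (-0.59 ± 0.14), Sdhd (-0.79 ± 0.22), Atp5j (-0.79 ± 0.24), Cyc1 (-0.84 ± 0.26), Atp5g3 (-0.91 ± 0.29) and Atp5h (-0.61 ± 0.21), all on the log2 scale. All of them are among the 11 that fell in gastrocnemius. Cox7a1, at -1.18 ± 0.67, was not called (edgeR adjusted p = 0.223), and its level in hypothalamus was at most 6.82 TPM. With the mouse as a block, since both tissues came from the same animals, 9 members were lower, Uqcr11 being added, and 11.1% of all genes were. Uqcrc1, Uqcrc2 and Sdha were called in all 6 fits that left out a mouse; CT-26 mouse 1, CT-26 mouse 2, control mouse 1 and control mouse 3 each took the count to 3 when left out, and CT-26 mouse 3 took it to 24. With library totals Uqcrc1, Uqcrc2 and Sdha were lower, beside 8.72% of all genes, and in TPM Uqcrc1 was lower and Cox6a2 higher, beside 4.63% and 21.8% of all genes.

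In control mice the gastrocnemius held more of nearly every member than the hypothalamus. Of 46 members, 43 were higher and 3 lower (edgeR, adjusted p below 0.05), where 83.4% of all genes were called, 35.7% higher and 47.7% lower. The members' median log2 fold change was 2.69 with TMM scaling, against -0.34 for all genes. It was smaller in the other scalings: 1.39 with library totals, against -1.63 for all genes, and 1.23 in TPM, against -1.13 for all genes. With TMM scaling, Cox8b, at 13.10 ± 0.42, Cox6a2, at 9.38 ± 0.32, and Cox7a1, at 9.11 ± 0.45, stood apart from the rest, which reached at most 3.36. The ubiquitous partners Cox6a1 and Cox8a were lower in muscle, at -1.97 ± 0.22 and -1.59 ± 0.22, as was Cox6b2 at -2.06 ± 0.32, in each of the 3 scalings. Cox7a2, the partner of Cox7a1, was higher in muscle at 1.82 ± 0.23 with TMM scaling and did not pass in TPM. Cox7a2l and Atp5s, higher at 0.79 ± 0.10 and 0.44 ± 0.13 with TMM scaling, were lower with library totals and in TPM. In TPM 40 members were higher and 5 lower, beside 13.8% and 73.9% of all genes, and with library totals 41 and 5, beside 15.7% and 72.4%.

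On the per-length TPM scale, Atp5b was the most abundant member in both tissues, with 2593 ± 109 TPM in control gastrocnemius and 1105 ± 164 TPM in control hypothalamus (SD, n = 3 each). In muscle it was followed by Cox6a2 at 1648 ± 139 TPM and Cox8b at 1559 ± 36 TPM, whose ranges overlapped, and then by Uqcrb at 1191 ± 34 TPM, Cox6c at 1164 ± 111 TPM and Cox7a1 at 1021 ± 97 TPM. The order in hypothalamus was Cox8a at 736 ± 127 TPM, Cox4i1 at 589.5 ± 69 TPM and Cox6a1 at 569 ± 83 TPM, again with overlapping ranges. Thus 3 of the 6 most abundant members in muscle were muscle forms. In CT-26 gastrocnemius the leading members were Atp5b at 3434 ± 619 TPM, Cox6a2 at 3149 ± 1058 TPM and Cox8b at 1519 ± 449 TPM.

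**Figure D5:**
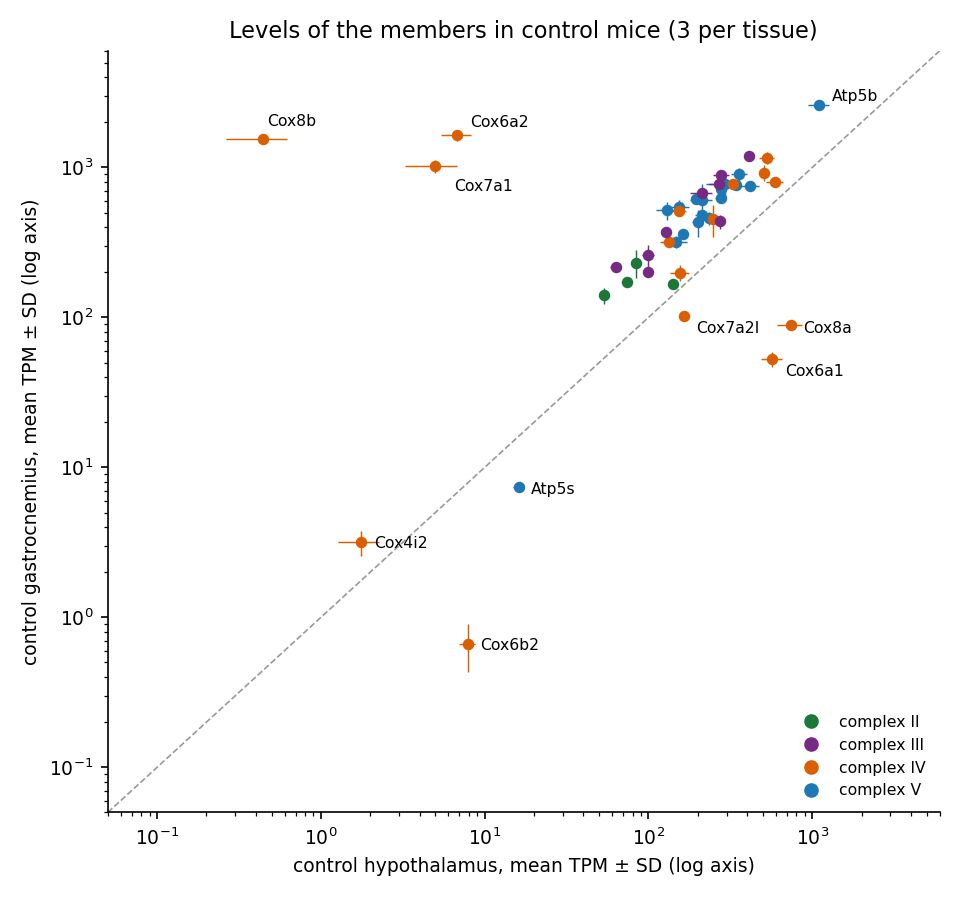
Mean TPM of each member in control gastrocnemius (vertical) and control hypothalamus (horizontal), 3 libraries each, on log axes. Cox8b, Cox6a2 and Cox7a1 lie far above the others for their hypothalamus level, and Cox6a1 and Cox8a lie on the hypothalamus side.

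Genes that work with these subunits were examined as lists, whose counts stand beside the 18.3% of all genes lower and 19.6% higher in gastrocnemius (11.7% lower with library totals, and 7.14% lower and 31.4% higher in TPM). Of the 6 mitochondrially encoded subunits of complexes III to V, 5 were lower and 0 higher in CT-26 gastrocnemius by edgeR, and all 6 at an unadjusted p below 0.05. The catalytic subunits mt-Co2 and mt-Co1 were at -1.44 ± 0.14 and -0.92 ± 0.27, and mt-Atp6, part of the proton channel, at -1.17 ± 0.35. With library totals 4 of the 6 were lower, and in TPM 1. Both Cycs, cytochrome c itself, at -0.78 ± 0.22, and Atpif1, the inhibitor of the ATP synthase, at -1.06 ± 0.24, fell. Among complex IV assembly factors 5 of 20 were lower and 4 higher, near the share of all genes. Of these, Taco1, which aids translation of mitochondrial Cox1, was at -1.74 ± 0.20, Coa5 at -1.10 ± 0.11 and Coa7 at -0.66 ± 0.13. Complex III assembly factors had 3 of 6 lower (Uqcc1, Bcs1l and Ttc19), complex II factors 1 lower (Sdhaf3) and 1 higher (Sdhaf1) of 4, and complex V factors 1 of 3 lower (Tmem70). Of 12 regulators 3 were lower and 3 higher. The factor Nrf1 was at 1.03 ± 0.12, whereas the coactivator Ppargc1b was at -0.74 ± 0.13 and Tfam, which packs mitochondrial DNA, at -0.47 ± 0.12. Ppargc1a, named here after its values were seen, stood at -0.47 ± 0.36 (edgeR adjusted p = 0.333). Of 6 markers of mitochondrial content, 2 were lower and 2 higher: the outer-membrane channel Vdac1 was at -0.94 ± 0.16, and the import proteins Tomm20 and Timm23 at 0.64 ± 0.14 and 0.54 ± 0.12. With library totals 4 complex IV factors were lower and 5 higher, 1 regulator was lower and 5 higher, 1 content marker was lower and 2 higher, 1 complex II factor was higher, 1 of Cycs and Atpif1 was lower, and no complex III or V factor was called. In TPM 3 complex IV factors were lower and 7 higher, 0 regulators were lower and 5 higher, 1 content marker was lower and 2 higher, 1 complex II factor was higher, 1 of Cycs and Atpif1 was lower, and again no complex III or V factor was called.

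In hypothalamus the same lists gave few calls, where 3.94% of all genes were higher and 4.83% lower. Of the mitochondrially encoded subunits, mt-Atp6 was lower at -0.62 ± 0.12, with 1 of 6 at an unadjusted p below 0.05. The complex III chaperone Bcs1l was lower at -0.45 ± 0.095, and Cox11, a copper chaperone of complex IV, was higher at 0.36 ± 0.098. Pprc1 at -0.51 ± 0.090 and Gabpa, a subunit of the GABP factor, at -0.29 ± 0.077 were lower. Hspd1, a mitochondrial chaperonin, was lower at -0.31 ± 0.078 and Tomm20 higher at 0.17 ± 0.046. With library totals 1 regulator was lower and the other counts were as with TMM scaling, and in TPM none of these lists had a call.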

How the data were processed

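RNA from gastrocnemius and hypothalamus of 6 mice was sequenced on the MGISEQ-2000 after directional library preparation, per the labels' protocols. Trim Galore 0.6.6, STAR 2.7.9a, RSEM 1.3.3 and GRCm38 are named in the submitters' processing notes; the annotation release and strand setting are not given in the sources used here. The authors deposited, per the file headers, RSEM expected counts, which are not normalized, and TPM, which are scaled to transcript length and library sum. Gene identifiers were matched to GENCODE M21 names (52135 of 55416); 18 chromosomes carry members.

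Expected counts were rounded and tested with edgeR 4.0.16 (filterByExpr, TMM scaling, quasi-likelihood test, Benjamini-Hochberg adjustment over all genes, threshold 0.05) in each tissue, and over all 12 libraries for the tissue terms. Standard errors came from the test statistic. Isoform ratios of TPM and shares within a family used an exact permutation test. TPM was tested with limma 3.58.1 on log2(TPM + 0.5). DESeq2 1.42.0, RLE size factors, library totals, other filters and pseudocounts, a replicate block and leaving out each library were alternatives. Scripts were tested on simulated data. R 4.3.3, Python 3.11.15 and pandas 2.3.3 were used. Libraries of a group come from separate mice. RSEM divides reads among near-identical sequences, so values of members with pseudogene copies are less certain.

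The replicate number marks the mouse, so both tissues of an animal share it, and the mouse was added as a block to the tissue terms; deviations of the 2 tissues correlated between -0.113 and 0.151. The labels do not say that the number pairs CT-26 with control mice. No pair of libraries agreed within sampling noise.

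The members and all lists were chosen with earlier results of these data known. Named are every called member, the isoform families and, per tissue and complex, the 3 members of smallest p and the one nearest 0; other lists name at most 3 genes by p. A planned correlation of other genes with Cox7a1 is not given because CT-26 and control libraries form separate clusters. Promoter windows are from RefSeq (GRCm38.p6); members without a window are named only.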

Additional observations from a re-analysis of the deposited data

Results flagged for a closer look

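In 8 members the CT-26 effect differed between the tissues by the test of the difference itself (edgeR, adjusted p below 0.05), as the log2 fold change in gastrocnemius minus that in hypothalamus. All 8 were lower, which is 17.4% of the 46 tested members and near the 14.0% of all genes lower in this term. The term was -0.925 for Uqcrc1 and -0.748 for Uqcrc2, the core proteins of complex III, and -0.836 for Cyc1. It was -0.594 for Sdha and -0.785 for Sdhd of complex II. In complex V it was -0.788 for Atp5j, -0.908 for Atp5g3 and -0.608 for Atp5h. In each of the 8 the gastrocnemius value was below 0 and the hypothalamus value lay between -0.10 and 0.16.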

How the results depend on the processing

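All 3 isoform ratios kept their direction under every alternative that applied to them, with the fall in Cox7a1/Cox7a2 between -1.73 and -1.46, Cox8b/Cox8a between -0.76 and -0.46 and Cox6a2/Cox6a1 between 0.83 and 1.05 when a library was left out. The count of members lower in gastrocnemius, 11, was 3 with library totals and 1 in TPM at each pseudocount, where 3 were higher; it ran from 3 to 27 over the leave-one-out fits. With the replicate number as a block it was 28, but the labels do not say that the numbers pair CT-26 with control mice. Between CT-26 and control muscles the same-number correlations of deviations were -0.0499, 0.158 and 0.216. The different-number correlations ran from -0.218 to 0.0841. A shared factor behind the numbers was not tested, and in hypothalamus the block gave 0 lower. In hypothalamus 0 members were also lower with RLE size factors, library totals, no filter, the 1 CPM filter and TPM, and 0 to 1 over the leave-one-out fits; 0 were higher in TPM and 0 to 1 over those fits. The tissue difference, 8 lower, was 13 with no filter, 3 with library totals and 1 in TPM, where 1 was higher, and 3 to 24 over the leave-one-out fits; with the mouse as a replicate block it was 9, and the block changed no other call of the tissue terms. The control tissues had 5 lower members with library totals and in TPM. The cause of these shifts was not tested.

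Single genes changed sign. Among the members singled out by the naming rule, these were in gastrocnemius Atp5b (0.19 with library totals, 0.39 in TPM, 0.0011 with no filter, -0.097 to 0.076 leaving out a library), Cox4i2 (0.071 with library totals; 0.24, 0.22 and 0.16 in TPM at pseudocounts of 0.1, 0.5 and 2), Cox7a2 (0.039, 0.25 in TPM, -0.55 to 0.00065 leaving out a library), Sdhc (0.043 in TPM), Uqcrfs1 (0.095 in TPM) and Cox8a (-0.20 to 0.33 leaving out a library). In hypothalamus they were Cox6c (0.0011 with RLE and DESeq2, 0.024 with library totals, 0.028 in TPM, 0.00085 with no filter, 0.0096 with the 1 CPM filter, -0.051 to 0.051 leaving out a library), Uqcrh (0.014, 0.029 in TPM, 0.00090 with the 1 CPM filter, -0.032 to 0.041) and Sdhc (0.0037 with library totals, -0.050 to 0.020). Leaving out a library alone did so for Atp5g1 (-0.0079 to 0.15), Atp5o (-0.022 to 0.051), Cox6a1 (-0.076 to 0.098), Cox6a2 (-0.17 to 0.059), Cox7a2 (-0.039 to 0.11) and Sdhb (-0.0029 to 0.038). Over all tested members, 6 changed sign with library totals and 14 in TPM in gastrocnemius, and 6 with library totals and 8 in TPM in hypothalamus. Beside those given, they were in gastrocnemius Atp5c1, Atp5d and Atp5l in both, and Atp5a1, Atp5f1, Atp5o, Atp5s, Uqcrq and Uqcr10 in TPM, all above 0. In hypothalamus they were Atp5b and Atp5e in both and Cox5b with library totals and Uqcr11 in TPM, above 0, and Cyc1, Atp5j and Atp5j2 in TPM, below 0. Depth limits Cox6b2, Cox7b2, Cox8c and, in hypothalamus, Cox8b.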
